A study of Homo sapiens with 12 samples.

Results

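The 10 genes described here encode the machinery that sets how much active eIF2 a cell has: the 4 eIF2-alpha kinases (EIF2AK1, EIF2AK2, EIF2AK3 and EIF2AK4), the 5 subunits of eIF2B (EIF2B1 to EIF2B5) and PPP1R15B, also called CReP. They were chosen by name as the upstream part of the integrated stress response, with earlier results of these data known, and all 10 were found among the 19923 protein-coding genes of the count files. RNA was sequenced from a pair of established human neuroblastoma lines, SK-N-BE2 and NGP, which carry amplified MYCN and are labelled wild type. Each line was kept for 6 days with STM2457, a small-molecule inhibitor of the m6A methyltransferase METTL3, or with DMSO as the control. The concentration was 12 µM for SK-N-BE2 but 1 µM for NGP, so dose differs with line, and each of the 4 groups had 3 replicates. The file headers also name a different sequencing run for each line, so run, line and dose cannot be told apart in any comparison of the lines. No label says whether replicates were separate cultures, so p-values measure the spread between these libraries, which may be technical.

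eIF2, bound to GTP, brings the initiator methionine tRNA to the ribosome. Each kinase answers a different signal (haem loss and mitochondrial stress for EIF2AK1, double-stranded RNA for EIF2AK2, unfolded protein in the endoplasmic reticulum for EIF2AK3, uncharged tRNA for EIF2AK4) and phosphorylates the alpha subunit of eIF2. Phosphorylated eIF2 blocks eIF2B, the exchange factor that reloads eIF2 with GTP, so most translation falls while the transcription factor ATF4 is translated more. Phosphatase PP1 reverses the mark when guided by PPP1R15B, which is made constitutively, or by PPP1R15A, which the response induces. Activity of all these proteins depends largely on phosphorylation and assembly, which RNA levels do not measure.

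The libraries held between 47242379 and 58159937 counted reads, and the 10 genes had between 1183 and 15373 reads each in every library. NGP DMSO replicate 1 stood apart. Its counts differed from those of NGP DMSO replicates 2 and 3 with a chi-square per degree of freedom of 97.1 and 63.6, against 11.4 between those 2. It was the highest or lowest of its group for 10 of the 10 genes, against 4 to 8 of the 10 in the other 11 libraries. Its median distance from the mean of the other replicates was 0.37 on the log2 scale, against 0.05 to 0.23 in those libraries. Over 14731 genes its signed distance fell with exon length (Spearman rho -0.46, a description across genes), against -0.23 to 0.44 in the other libraries. The NGP response of each of the 10 genes is therefore given with and without it. Other values that use NGP libraries include it unless stated. Of 8 neuroblastoma markers, 6 were at 1 CPM or more in every library. TH lay near 0 in NGP (means of 0.512 and 0.857 CPM). The 10 markers of other cell types summed to between 12.3 and 152 CPM. In SK-N-BE2 and in NGP with STM2457 these came mostly from the fibroblast genes DCN and LUM. In NGP with DMSO the leukocyte marker CD68 averaged 6.22 CPM, above either of them. DCN averaged 44.6 CPM with DMSO and 97.4 with STM2457 in SK-N-BE2, against 0.158 and 1.62 CPM in NGP. LUM averaged 19.96 and 34.4 CPM in SK-N-BE2, with 5.86 and 22.1 CPM in NGP. The part of these in the results was not tested. METTL3 rose in both lines (log2 fold change 0.52, SE 0.08, adjusted edgeR p 0.000106 in SK-N-BE2, and 0.92, SE 0.11, adjusted edgeR p 0.000300 in NGP), which does not measure inhibition of the enzyme.

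Levels between the genes were compared as TPM, a share of transcripts that divides reads by exon length. That length covers all annotated exons of a gene, so the order between genes is approximate. In every group PPP1R15B, EIF2AK1 and EIF2B1 were the 3 highest and EIF2AK3 and EIF2AK4 the 2 lowest. In SK-N-BE2 with DMSO, PPP1R15B measured 152 ± 4.15 TPM (SD, n = 3), EIF2AK1 114 ± 4.64 and EIF2B1 74.7 ± 9.29, and the replicates of these 3 did not overlap. EIF2B4 (43.0 ± 3.16 TPM) and EIF2B2 (36.4 ± 4.76) followed and overlapped each other. EIF2B5 (28.0 ± 1.502 TPM) lay above EIF2B3 (24.4 ± 1.82), which overlapped EIF2AK2 (22.9 ± 3.21). EIF2AK3 (14.8 ± 1.96 TPM) and EIF2AK4 (13.6 ± 1.22) closed the order and overlapped. In NGP with DMSO the order began with PPP1R15B (180.1 ± 48.1 TPM), which overlapped EIF2AK1 (162 ± 16.3), and EIF2B3 (63.8 ± 2.13) stood above EIF2B5 (47.5 ± 2.67) and EIF2B2 (38.0 ± 1.67). The kinases EIF2AK2 (30.6 ± 11.2 TPM), EIF2AK3 (26.6 ± 8.52) and EIF2AK4 (18.7 ± 4.63) overlapped their neighbours there, and for all 3 the lowest library was DMSO replicate 1.

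With STM2457, EIF2AK1 stood at the top of the order in both lines (137 ± 4.87 TPM in SK-N-BE2 and 123 ± 4.79 in NGP), with PPP1R15B next (124 ± 5.78 and 119.8 ± 4.92). Their replicates were separate in SK-N-BE2 but overlapped in NGP. EIF2B5 moved up to place 4 in both lines (51.1 ± 2.21 and 52.3 ± 1.18 TPM), from place 6. In NGP its replicates overlapped those of EIF2B4 at the next place (51.8 ± 2.95 TPM). Among the kinases EIF2AK1 held most of the summed TPM in every group, 69.0% ± 1.91 and 67.7% ± 1.34 in SK-N-BE2 with DMSO and STM2457, and 68.7% ± 5.30 and 60.9% ± 0.741 in NGP. TPM also shifts with the rest of each library, so changes between groups are taken below from CPM, read shares on the TMM scale, and the edgeR fits.

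**Figure D1:**
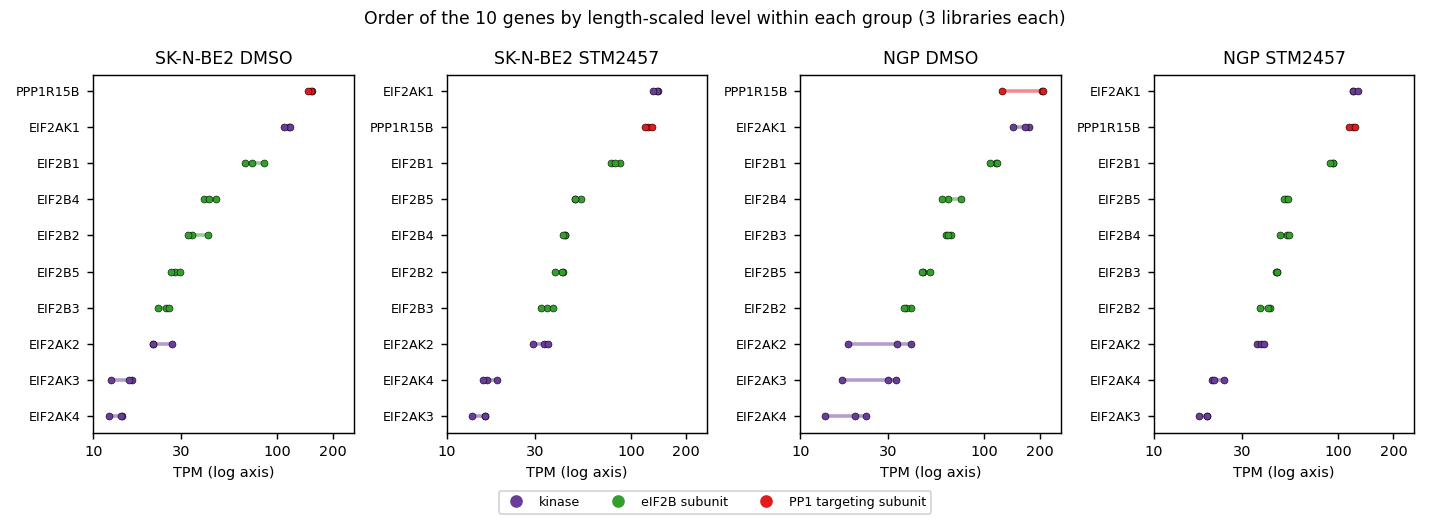
Level of each gene in TPM (x axis, log scale) in the 3 libraries of each group, 1 panel per group, with genes ordered from the highest mean at the top and coloured by role. PPP1R15B and EIF2AK1 share the top in all 4 panels, and the points of NGP DMSO spread most. EIF2B5 stands at place 6 with DMSO and place 4 with STM2457, where it overlaps EIF2B4 in NGP.

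In SK-N-BE2, 4 of the 10 genes passed the test with STM2457 (edgeR quasi-likelihood, Benjamini-Hochberg adjusted p under 0.05 over all genes tested), against 54.7% of all genes. EIF2AK2, EIF2B3 and EIF2B5 were higher (26.9% of all genes were) and PPP1R15B was lower (27.8% of all genes were). All 4 calls held when any library of the line was left out. In NGP, 2 of the 10 passed, EIF2AK4 and EIF2B5, both higher, against 41.7% of all genes, 19.4% higher and 22.2% lower. Without NGP DMSO replicate 1, 7 passed, against 57.3% of all genes: EIF2AK2, EIF2AK4, EIF2B2 and EIF2B5 were higher (27.6% of all genes were) and EIF2AK1, EIF2AK3 and PPP1R15B lower (29.7% of all genes were). The NGP count was 2 without DMSO replicate 2, and 0 without DMSO replicate 3 or any STM2457 replicate. The replicates of the groups did not overlap for 6 of the 10 genes in SK-N-BE2, against 62.2% of all genes, and for 5 of the 10 in NGP, against 54.7% of all genes. With all libraries, neither share of the 10 genes that passed lay above that of all genes.

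The changes were small. The median absolute log2 fold change of the 10 genes was 0.15 in SK-N-BE2, against 0.37 over the 14013 genes tested, and 0.28 in NGP, against 0.39 over 13610 genes. None of the 10 reached an absolute log2 fold change of 1 in these fits, while 13.7% of genes did so in SK-N-BE2 while 15.6% did in NGP. The largest in SK-N-BE2 was that of EIF2B5, at 0.71. In NGP it was that of EIF2AK2, at 0.54, which did not pass and was 0.33 without DMSO replicate 1, where PPP1R15B had the largest, at -0.52.

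**Figure D2:**
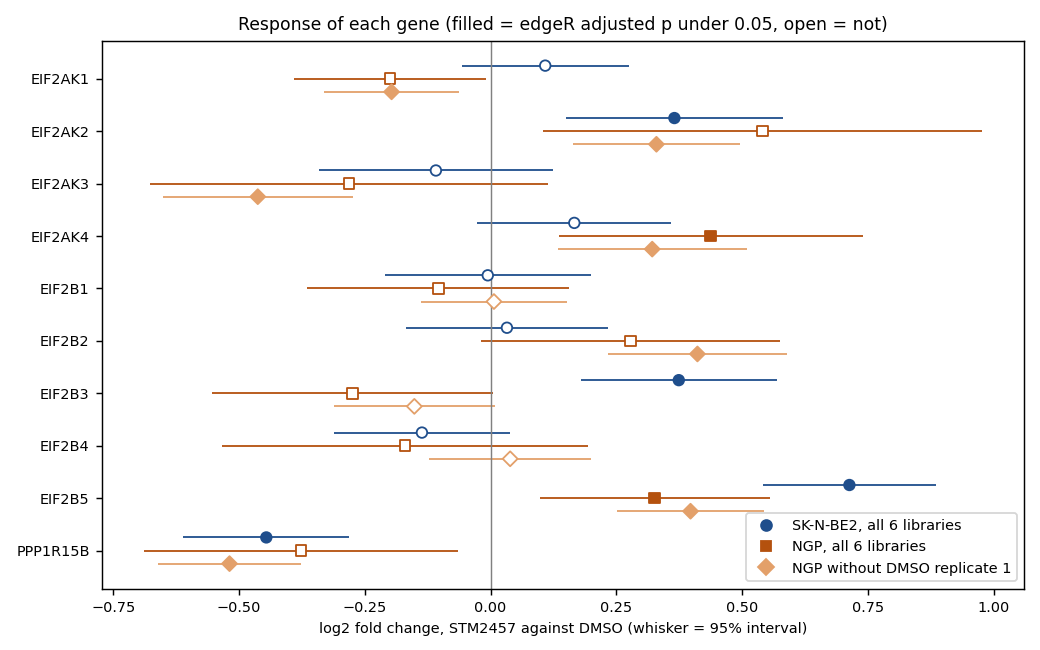
Log2 fold change of each gene with STM2457 against DMSO (x axis), with its 95% interval as whiskers, for SK-N-BE2, for NGP and for NGP without DMSO replicate 1. Filled symbols passed the edgeR test, and all values lie within 1 log2 unit of 0. Most NGP whiskers are shorter without DMSO replicate 1.

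EIF2AK2 (PKR, chromosome 2, 37099210 to 37157065, minus strand, GRCh38) was the kinase with the clearest rise in SK-N-BE2. It measured 94.4, 73.1 and 74.7 CPM with DMSO and 108, 112 and 100.5 CPM with STM2457. All treated libraries lay above all controls, at a log2 fold change of 0.37 (SE 0.10, adjusted edgeR p 0.00718), or 1.29-fold. Its NGP values were 53.7, 95.8 and 84.4 CPM with DMSO and 111, 116 and 119 CPM with STM2457. The groups did not overlap there either, yet the low DMSO replicate 1 widened the spread, and the log2 fold change of 0.54 (SE 0.19) had an adjusted edgeR p of 0.0502. Without that library it was 0.33 (SE 0.07, adjusted edgeR p 0.00396), and without DMSO replicate 2 it was 0.72 (adjusted edgeR p 0.0154). In DESeq2 the NGP value also passed (0.56, adjusted p 0.0191). The 2 responses differed by -0.16 (95% interval -0.66 to 0.33, adjusted edgeR p 0.636).

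The promoters were searched because PPP1R15B and eIF2B sit beside a transcriptional response run by ATF4. An interferon element was added to the search later, and EIF2AK2 is itself an interferon-induced gene. RefSeq promoter windows (GRCh38.p14, 250 bases before to 50 after the start site) were found for 9 of the 10 genes, all but EIF2AK1. Both strands were searched for the C/EBP-ATF element TGATGNAA, the E-box CACGTG and the interferon response element GAAANNGAAA, which do not overlap in these windows. They occurred in 3.62%, 7.26% and 3.57% of 35116 promoter windows of that length. Of the 9 genes 1, 2 and 1 had a match, namely PPP1R15B for the first, EIF2AK2 and EIF2B3 for the E-box and EIF2AK2 for the interferon element. In EIF2AK2 the E-box begins 181 bases and the interferon element 6 bases before the start site. The stretch below, chr2:37156956-37157230 on the minus strand, runs from 250 bases before to 25 after the start, 5′ to 3′, with both matches in capitals.
EIF2AK2: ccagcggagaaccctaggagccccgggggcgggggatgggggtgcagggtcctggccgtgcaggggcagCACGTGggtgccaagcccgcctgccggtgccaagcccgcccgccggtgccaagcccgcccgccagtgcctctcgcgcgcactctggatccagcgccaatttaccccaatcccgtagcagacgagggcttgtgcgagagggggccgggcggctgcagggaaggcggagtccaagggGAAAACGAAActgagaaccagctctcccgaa

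EIF2AK4 (GCN2, chromosome 15, 39934115 to 40035591, plus strand) rose in NGP. It measured 45.0, 60.6 and 55.7 CPM with DMSO and 70.5, 80.9 and 71.0 CPM with STM2457, with no overlap. The log2 fold change was 0.44 (SE 0.13, adjusted edgeR p 0.0281), and without DMSO replicate 1 it was 0.32 (SE 0.08, adjusted edgeR p 0.00870). The call was lost without DMSO replicate 3 (adjusted edgeR p 0.0686) or without STM2457 replicate 1 (0.0697), 2 (0.0836) or 3 (0.0664). In SK-N-BE2 the values were 56.9, 54.7 and 48.2 CPM with DMSO and 59.0, 65.4 and 59.7 CPM with STM2457. These did not overlap either, but the log2 fold change of 0.17 (95% interval -0.03 to 0.36, adjusted edgeR p 0.132) did not pass. The difference between the lines was -0.26 (95% interval -0.60 to 0.09, adjusted edgeR p 0.244).

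EIF2AK1 (HRI, chromosome 7, 6022247 to 6059175, minus strand) passed in neither line with all libraries. In SK-N-BE2 it measured 209, 208 and 197 CPM with DMSO and 229, 222 and 228 CPM with STM2457, so the treated libraries were the higher ones. The log2 fold change was 0.11 (95% interval -0.06 to 0.27, adjusted edgeR p 0.249). The NGP libraries held 217, 214 and 214 CPM with DMSO and 188, 186 and 197 CPM with STM2457, so the treated libraries were the lower ones. There the log2 fold change was -0.20 (95% interval -0.39 to -0.01, adjusted edgeR p 0.0859), and -0.20 (SE 0.06, adjusted edgeR p 0.0176) without DMSO replicate 1. The 2 responses differed by 0.32 (SE 0.10, adjusted edgeR p 0.0244), a call that held in 6 of 12 fits that left out a library.

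EIF2AK3 (PERK, chromosome 2, 88556741 to 88627464, minus strand) did not pass in either line with all libraries. In SK-N-BE2 it measured 29.2, 27.5 and 22.6 CPM with DMSO and 26.3, 25.5 and 23.6 CPM with STM2457, which overlap (log2 fold change -0.11, 95% interval -0.34 to 0.12, adjusted edgeR p 0.414). In NGP it measured 25.4, 40.2 and 38.1 CPM with DMSO and 30.2, 27.1 and 29.7 CPM with STM2457. DMSO replicate 1 lay below all treated libraries and the other DMSO replicates above them. The log2 fold change was -0.28 (SE 0.17, adjusted edgeR p 0.226) with it and -0.46 (SE 0.08, adjusted edgeR p 0.00118) without it. Of its exon length, 14.3% is shared with a non-coding gene on the other strand, and reads were counted without regard to strand, so its value is uncertain.

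**Figure D3:**
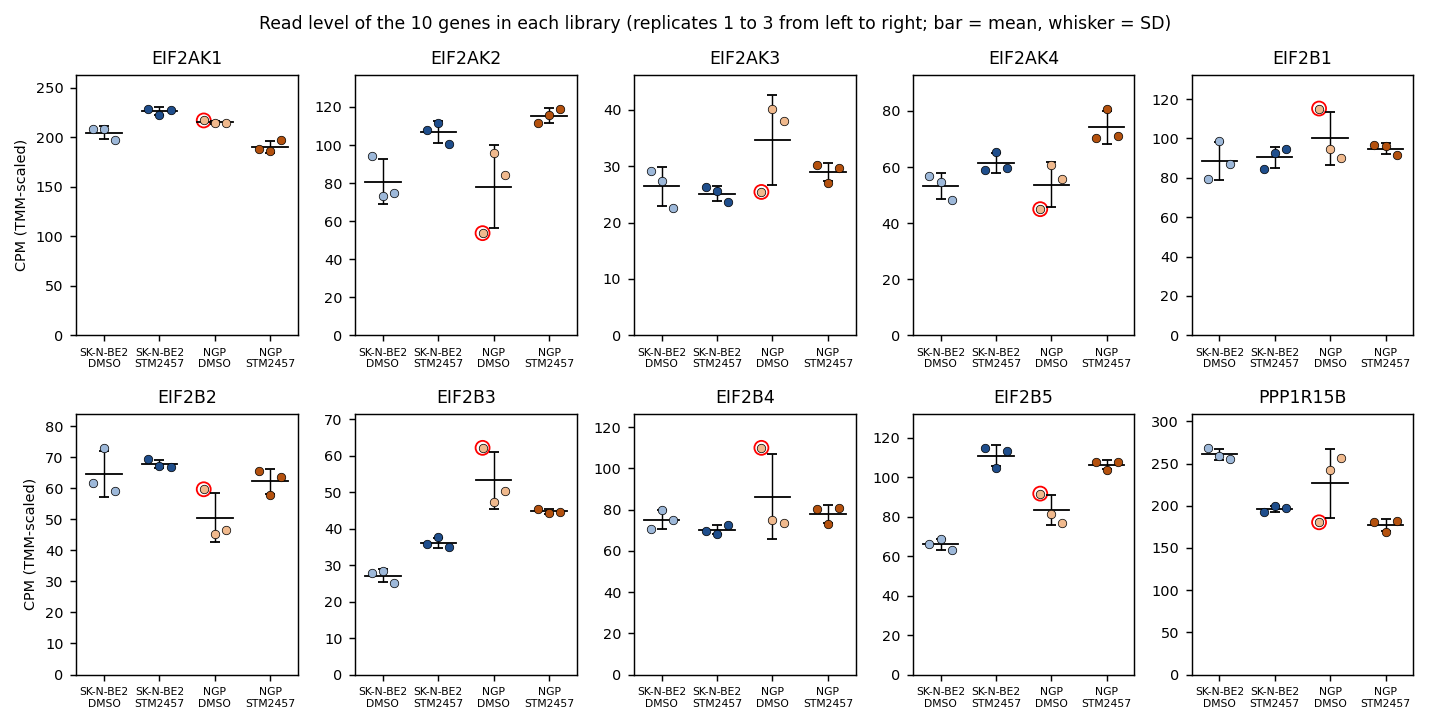
CPM of each of the 10 genes (y axis from 0, TMM scale) in the 12 libraries, by group, with the mean as a bar and the SD as a whisker, and NGP DMSO replicate 1 ringed in red. In 6 of the 10 panels, EIF2B5 and PPP1R15B among them, the treated SK-N-BE2 libraries do not overlap the controls, against 62.2% of all genes. The ringed library is the highest or lowest of its group in every panel, against 4 to 8 panels for each other library.

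Among the eIF2B subunits, EIF2B5 had the largest change in both lines with all libraries, while in NGP without DMSO replicate 1 EIF2B2 was at 0.41 and EIF2B5 at 0.40. EIF2B5 (epsilon, the catalytic subunit, chromosome 3, 184135038 to 184146127, plus strand) measured 65.9, 68.6 and 63.3 CPM with DMSO and 115, 105 and 113 CPM with the inhibitor in SK-N-BE2. All treated libraries lay far above the controls, at a log2 fold change of 0.71 (SE 0.08, adjusted edgeR p 7.37e-06), or 1.64-fold. NGP libraries gave 91.6, 81.4 and 76.8 CPM with DMSO and 107, 104 and 108 CPM with STM2457, again without overlap. The log2 fold change was 0.33 (SE 0.10, adjusted edgeR p 0.0297), and without DMSO replicate 1 it was 0.40 (SE 0.06, adjusted edgeR p 0.000622). The NGP call was lost without DMSO replicate 2 (adjusted edgeR p 0.0671) or 3 (0.121) or without STM2457 replicate 1 (0.116), 2 (0.0530) or 3 (0.112). In the main edgeR fits of all 6 libraries of a line, EIF2B5 was the only one of the 10 called alike in both lines. DESeq2 also called EIF2AK2 higher in both (adjusted p 0.00181 and 0.0191). So did edgeR with DESeq2 size factors, upper-quartile factors, no filter or counts halved (NGP adjusted edgeR p 0.0443 to 0.0482). With the replicate number as a block, EIF2AK2 was called in both lines (NGP adjusted edgeR p 0.0274), while EIF2B5 was lost in NGP (0.0656). The RefSeq promoter of EIF2B5 is printed beside its values. None of the 3 motifs lies in its window, of which chr3:184135108-184135382 on the plus strand (250 bases before to 25 after the start) follows in lower case.
EIF2B5: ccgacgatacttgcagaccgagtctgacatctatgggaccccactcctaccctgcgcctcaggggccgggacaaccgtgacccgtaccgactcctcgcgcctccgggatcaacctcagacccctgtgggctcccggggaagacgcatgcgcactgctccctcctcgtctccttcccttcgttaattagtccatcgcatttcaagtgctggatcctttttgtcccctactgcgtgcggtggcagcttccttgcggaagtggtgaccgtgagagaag

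EIF2B3 (gamma, which forms the catalytic core with epsilon, chromosome 1, 44850522 to 44986722, minus strand) rose in SK-N-BE2. It measured 27.9, 28.4 and 25.2 CPM with DMSO and 35.7, 37.7 and 35.0 CPM with STM2457, with no overlap. The log2 fold change was 0.37 (SE 0.09, adjusted edgeR p 0.00331), or 1.30-fold. Its levels in NGP were 62.2, 47.3 and 50.3 CPM with DMSO and 45.5, 44.2 and 44.7 CPM with STM2457, where the treated libraries were the lower ones. That value of -0.27 did not pass (95% interval -0.55 to 0.00, adjusted edgeR p 0.105), nor did -0.15 without DMSO replicate 1 (adjusted edgeR p 0.0950). A processed pseudogene on the other strand covers 10.2% of its exon length, so its value is uncertain.

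The regulatory subunits EIF2B1 (alpha, chromosome 12, 123620406 to 123633766, minus strand), EIF2B2 (beta, chromosome 14, 75002921 to 75012366, plus strand) and EIF2B4 (delta, chromosome 2, 27364352 to 27370486, minus strand) sense the phosphorylated eIF2. None of these 3 passed in either line with all libraries. EIF2B1 measured 79.6, 98.9 and 87.1 CPM with DMSO and 84.5, 92.4 and 94.6 CPM with the inhibitor in SK-N-BE2, which overlap (log2 fold change -0.01, 95% interval -0.21 to 0.20). In NGP its log2 fold change was -0.10 (95% interval -0.36 to 0.16), and 0.01 (95% interval -0.14 to 0.15) without DMSO replicate 1. EIF2B4 gave -0.14 (95% interval -0.31 to 0.04) in SK-N-BE2 and -0.17 (95% interval -0.53 to 0.19) in NGP, where DMSO replicate 1 stood at 109.9 CPM against 75.1 and 73.7 CPM. Without that library the NGP value was 0.04. EIF2B2 gave 0.03 (95% interval -0.17 to 0.23) in SK-N-BE2. In NGP it measured 59.7, 45.4 and 46.5 CPM with DMSO and 65.6, 57.8 and 63.5 CPM with STM2457, so that DMSO replicate 1 overlapped the treated libraries. The NGP log2 fold change of EIF2B2 was 0.28 (SE 0.13, adjusted edgeR p 0.121) and 0.41 (SE 0.08, adjusted edgeR p 0.00167) without that library. Other-strand genes cover 15.6% of the exon length of EIF2B1 (DDX55 and GTF2H3) and 23.6% of that of EIF2B2, so both are uncertain.

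The 5 subunits come together in equal numbers in the decameric complex, but their TPM values were unequal. TPM divides by the length of all annotated exons, from 3411 bases for EIF2B3 to 7203 for EIF2B5. The messenger expressed can be shorter, so shares between genes are approximate. EIF2B1 held 36.1% ± 1.54 (SD, n = 3) of the summed eIF2B TPM in SK-N-BE2 with DMSO and EIF2B3 11.8% ± 0.845. The share of EIF2B5 was 14.3%, 13.0% and 13.5% in the DMSO libraries of SK-N-BE2 and 21.1%, 19.1% and 20.2% in the STM2457 libraries. In NGP it was 13.5%, 15.3% and 14.7% with DMSO and 18.2%, 18.4% and 18.7% with STM2457. Treated and control libraries did not overlap in either line. The highest subunit stood at 3.07 ± 0.335 times the lowest with DMSO and 2.36 ± 0.162 times with STM2457 in SK-N-BE2. For NGP these were 2.97 ± 0.126 and 2.28 ± 0.180 times.

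**Figure D4:**
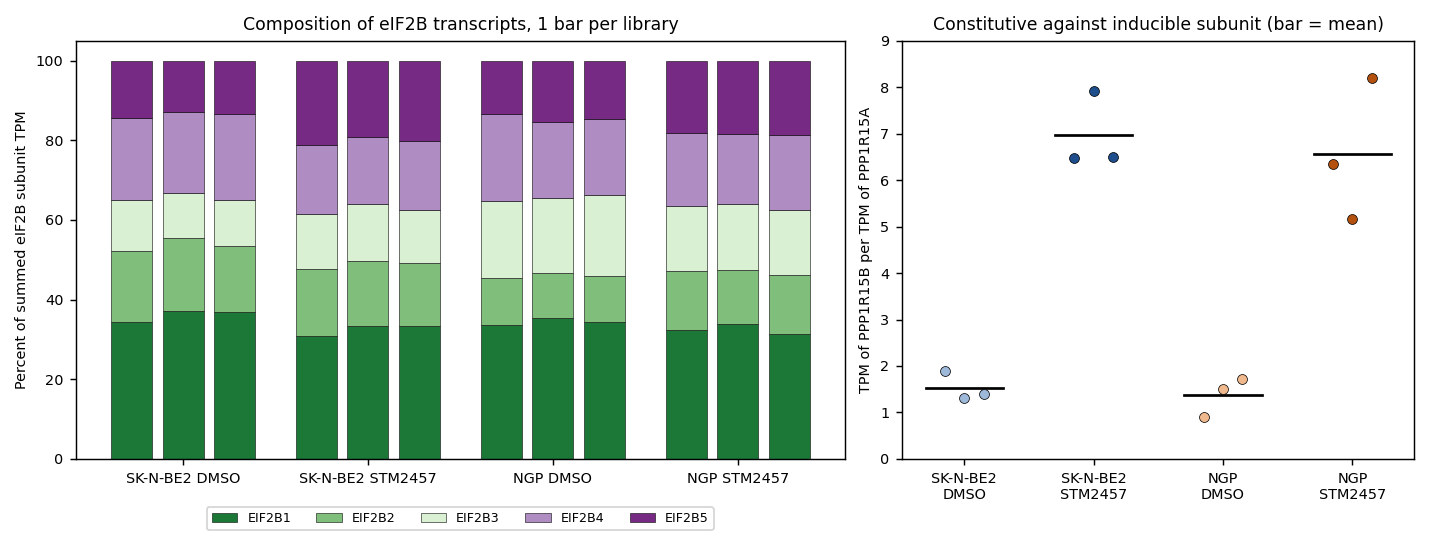
Left, share of each subunit in the summed eIF2B TPM (y axis, percent), 1 bar per library, where EIF2B5 takes 13.0% to 15.3% with DMSO and 18.2% to 21.1% with STM2457. Right, TPM of PPP1R15B per TPM of PPP1R15A in each library with the group mean as a bar, at most 1.88 with DMSO and at least 5.17 with STM2457.

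PPP1R15B (chromosome 1, 204403381 to 204411817, minus strand) was lower with STM2457. In SK-N-BE2 it measured 269, 259 and 255 CPM with DMSO and 193, 199 and 198 CPM with STM2457. The groups were far apart, at a log2 fold change of -0.45 (SE 0.08, adjusted edgeR p 0.000278). Its NGP levels were 180.5, 243 and 256 CPM with DMSO and 181, 169 and 182 CPM with STM2457. DMSO replicate 1 lay among the treated libraries and the other DMSO replicates above them. The log2 fold change of -0.38 (SE 0.14, adjusted edgeR p 0.0547) did not pass with it and was -0.52 (SE 0.06, adjusted edgeR p 0.000108) without it. The lines differed by -0.06 (95% interval -0.39 to 0.27, adjusted edgeR p 0.823). Its promoter holds the C/EBP-ATF element, the site type bound by ATF4 with C/EBP partners, beginning 227 bases before the start site. The stretch chr1:204411793-204412067 on the minus strand, 250 bases before to 25 after the start, is printed with that match in capitals.
PPP1R15B: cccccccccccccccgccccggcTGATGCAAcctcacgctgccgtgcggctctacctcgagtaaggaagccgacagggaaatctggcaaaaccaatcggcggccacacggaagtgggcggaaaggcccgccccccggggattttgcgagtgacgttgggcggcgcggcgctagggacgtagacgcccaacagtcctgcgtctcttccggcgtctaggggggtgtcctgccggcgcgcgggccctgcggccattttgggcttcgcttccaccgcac

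PPP1R15A (GADD34), the stress-induced counterpart of PPP1R15B, fell much further. It measured 83.2, 115 and 106.6 CPM with DMSO and 17.3, 14.7 and 17.7 CPM with the inhibitor in SK-N-BE2 (-2.65 on the log2 scale, SE 0.13, adjusted edgeR p 4.04e-09). In NGP it measured 115, 94.4 and 86.9 CPM with DMSO and 16.6, 19.1 and 13.0 CPM with STM2457 (log2 fold change -2.63, SE 0.17, adjusted edgeR p 2.15e-05). The TPM of PPP1R15B per TPM of PPP1R15A was 1.53 ± 0.308 (SD, n = 3) with DMSO and 6.97 ± 0.824 with STM2457 in SK-N-BE2. The ratio was 1.38 ± 0.417 and 6.57 ± 1.52 in NGP. Over all genes tested, 26.9% rose and 27.8% fell in SK-N-BE2, while 19.4% rose and 22.2% fell in NGP. Of the 4 other PP1 genes listed (PPP1R15A and the catalytic subunits), 1 rose and 2 fell in SK-N-BE2, and 1 rose and 1 fell in NGP. The riser was PPP1CC in both lines (0.48, SE 0.08, adjusted edgeR p 0.000239, and 0.64, SE 0.10, adjusted edgeR p 0.00111). PPP1CA fell in SK-N-BE2 (-0.35, adjusted edgeR p 0.00230) and gave 0.01 in NGP, and 27.5% of its exon length is shared with genes on the other strand. PPP1CB gave -0.18 and -0.21 and did not pass.

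The responses of the lines were compared in a fit of all 12 libraries, as SK-N-BE2 minus NGP. Of the 10 genes 3 differed, all with the higher response in SK-N-BE2, against 30.9% of all genes, 17.0% with the higher and 13.9% with the lower response in SK-N-BE2. EIF2B3 differed by 0.66 (SE 0.15, adjusted edgeR p 0.00405), and this held in all 12 fits that left out a library. EIF2B5 differed by 0.40 (SE 0.12, adjusted edgeR p 0.0208). That call was lost without SK-N-BE2 DMSO replicate 1 (0.0526) or 3 (0.0696) or SK-N-BE2 STM2457 replicate 1 (0.0586) or 3 (0.0536), and with upper-quartile scaling (0.0508), all adjusted edgeR p. The difference for EIF2AK1, 0.32, was lost without SK-N-BE2 DMSO replicate 1 (0.0535) or 3 (0.0867), SK-N-BE2 STM2457 replicate 1 (0.0626) or 3 (0.0599) or NGP STM2457 replicate 1 (0.0657) or 2 (0.0583), and with upper-quartile scaling (0.0666), again as adjusted edgeR p. Fitting the replicate number as a block also ended the calls for EIF2B5 (adjusted edgeR p 0.0532) and EIF2AK1 (0.0668). Without NGP DMSO replicate 1, EIF2B2 also differed (-0.39, adjusted edgeR p 0.0262).

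In the DMSO controls, also collected after 6 days, 4 of the 10 genes differed between the lines, against 71.1% of all genes, of which 35.7% were higher and 35.4% lower in SK-N-BE2. EIF2B3 was lower in SK-N-BE2 by the largest margin, 27.2 ± 1.74 against 53.3 ± 7.89 CPM (SD, n = 3; log2 difference -0.97, SE 0.11, adjusted edgeR p 1.26e-06). EIF2B5 was lower as well (65.9 ± 2.63 against 83.3 ± 7.59 CPM, log2 difference -0.34, SE 0.08, adjusted edgeR p 0.00262). Both calls held in all 12 fits that left out a library. With STM2457 the means of EIF2B5 were 111 ± 5.34 CPM in SK-N-BE2, beside 106 ± 2.27 CPM in NGP. EIF2AK3 was lower in SK-N-BE2 (-0.39, SE 0.15, adjusted edgeR p 0.0328), a call lost without SK-N-BE2 DMSO replicate 2 (0.0683) or 3 (0.187) or NGP DMSO replicate 2 (0.155) or 3 (0.125). EIF2B2 was higher in SK-N-BE2 (0.35, SE 0.11, adjusted edgeR p 0.0131), a call lost without NGP DMSO replicate 2 (0.0522) or 3 (0.0571). The replicates of these last 2 genes overlapped between the lines.

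The substrate of the kinases and of eIF2B was examined next. Of 4 genes for eIF2 subunits and their assembly, 2 fell in SK-N-BE2, 3 fell in NGP, and none rose (median log2 fold change -0.27 and -0.42, against -0.02 and -0.03 over all genes tested). Of all genes 27.8% fell in SK-N-BE2 and 22.2% in NGP. EIF2S2 (beta) measured 245, 312 and 257 CPM with DMSO and 132, 139.7 and 134 CPM with the inhibitor in SK-N-BE2 (-1.04, SE 0.10, adjusted edgeR p 1.69e-06). In NGP it fell by 1.11 on the log2 scale (SE 0.11, adjusted edgeR p 0.000149). EIF2S1 (alpha, the subunit that is phosphorylated) fell in NGP (-0.51, SE 0.08, adjusted edgeR p 0.00196) and gave 0.06 (adjusted edgeR p 0.547) in SK-N-BE2. EIF2S3 (gamma) fell in both lines (-0.59, adjusted edgeR p 4.14e-05, and -0.34, adjusted edgeR p 0.0117). Its NGP call was lost without any of the STM2457 replicates (adjusted edgeR p up to 0.0770), and a near-identical gene copy makes EIF2S3 uncertain. CDC123, an assembly factor, gave 0.09 and 0.02 and did not pass. The summed TPM of the 5 eIF2B subunits was 28.4% ± 0.564 (SD, n = 3) of that of the eIF2 subunits with DMSO and 50.7% ± 1.93 with STM2457 in SK-N-BE2. It was 35.4% ± 2.90 and 58.0% ± 1.72 in NGP, with no overlap in either line.

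Among 10 partners of eIF2 in initiation, 3 rose and 4 fell in SK-N-BE2, and none rose and 3 fell in NGP (median -0.06 and -0.12). Of all genes 26.9% rose and 27.8% fell in SK-N-BE2, while 19.4% rose and 22.2% fell in NGP. EIF1, which guards start codon choice, fell in both (-1.33, adjusted edgeR p 5.74e-07, and -1.57, adjusted edgeR p 4.06e-05). EIF5, the GTPase activator of eIF2, fell by 0.39 and 0.52 on the log2 scale (adjusted edgeR p 0.00102 and 0.00393). MCTS1, a re-initiation factor, fell in NGP (-0.46, adjusted edgeR p 0.00787). BZW1 and BZW2, which mimic EIF5, rose in SK-N-BE2 (0.45 and 0.41, adjusted edgeR p 0.00188 and 0.000627) and gave 0.17 and -0.14 in NGP without passing.

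Of 10 regulators of the kinases, 2 rose and 5 fell in SK-N-BE2, and 2 rose and 1 fell in NGP (median -0.42 and 0.14). Against the same shares of all genes, the counts in NGP are near or below them. GCN1, the ribosome-bound activator of EIF2AK4, rose in both lines (0.63, adjusted edgeR p 3.29e-05, and 0.38, adjusted edgeR p 0.0107), though its NGP call was lost without STM2457 replicate 1 (adjusted edgeR p 0.0638). IMPACT, which competes for GCN1 and restrains EIF2AK4, fell in SK-N-BE2 (-0.93, adjusted edgeR p 1.84e-06) and gave -0.11 in NGP (adjusted edgeR p 0.588). HSPA5 (BiP), the chaperone that holds EIF2AK3 inactive, fell in SK-N-BE2 (-0.97, SE 0.11, adjusted edgeR p 7.87e-06) and gave 0.26 in NGP (SE 0.09, adjusted edgeR p 0.0506, and 0.0170 in DESeq2). DNAJC3, an inhibitor of EIF2AK2 and EIF2AK3, fell in SK-N-BE2 (-0.77, adjusted edgeR p 4.97e-06) and in NGP (-0.49, adjusted edgeR p 0.0363), where the call held in 1 of 6 fits that left out a library, that without DMSO replicate 1. HSP90AA1, a chaperone of the kinases, rose in both (0.94, adjusted edgeR p 5.54e-06, and 1.73, adjusted edgeR p 9.32e-06).

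The signals and outputs on either side of the kinases were listed in the same way. Of 14 genes of double-stranded RNA sensing and interferon signalling, 12 had enough reads in SK-N-BE2, where 6 rose and 1 fell, and 10 in NGP, where 3 rose and none fell (median 0.30 and 0.18). Of all genes 26.9% rose in SK-N-BE2 and 19.4% in NGP. OAS3 and OAS1, which sense the same RNA as EIF2AK2, rose in SK-N-BE2 (1.45, adjusted edgeR p 5.46e-08, and 0.81, adjusted edgeR p 3.80e-05), from 23.2 to 64.9 and from 17.5 to 31.6 CPM. In NGP both had group means under 1 CPM. IRF3 rose in SK-N-BE2 (0.58, adjusted edgeR p 0.000717), with 19.3% of its exon length shared with BCL2L12 on the other strand. In NGP, STAT2 rose from 18.0 to 42.0 CPM (1.20, adjusted edgeR p 9.40e-05). IRF9 rose in NGP from 0.761 to 1.70 CPM (adjusted edgeR p 0.0469), a call that held in 1 of 6 fits that left out a library, that without DMSO replicate 1, and 42.2% of its exon length is shared with another gene.

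Most of the genes listed for the other arms of the unfolded protein response were lower with STM2457. All 6 genes listed fell in SK-N-BE2 and 5 of 6 in NGP, against 27.8% and 22.2% of all genes (median -1.67 and -1.53). The exception in NGP was HSP90B1, at 546, 517 and 450 CPM with DMSO and 587, 607 and 629 CPM with STM2457. Its treated libraries were the higher ones there, but the change did not pass. ERN1, the sensor IRE1, measured 42.6, 47.0 and 42.2 CPM with DMSO and 6.02, 7.42 and 6.36 CPM with the inhibitor in SK-N-BE2 (-2.77, adjusted edgeR p 8.77e-10). In NGP it fell by 3.55 on the log2 scale (adjusted edgeR p 1.50e-05). XBP1, whose messenger ERN1 splices, fell by 2.25 in both lines (adjusted edgeR p 6.28e-09 and 4.07e-06). The XBP1 targets DNAJB9 (-2.19, adjusted edgeR p 9.38e-10 in SK-N-BE2) and SEL1L (-1.58, adjusted edgeR p 0.000285 in NGP) fell too.

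On the ATF4 side, 17 of 17 genes fell in SK-N-BE2 and 15 of 17 in NGP (median -3.17 and -2.63), against 27.8% and 22.2% of all genes. This list was drawn up with earlier results of these libraries known, so its direction is no independent evidence. ATF4 itself fell by 1.92 and 0.78 on the log2 scale (adjusted edgeR p 8.79e-09 and 0.00506). The pro-apoptotic enzyme CHAC1 fell from 400.2 to 7.03 CPM in SK-N-BE2 (-5.87, adjusted edgeR p 4.32e-12). NUPR1 fell from 67.4 to 1.33 CPM there (-5.70, adjusted edgeR p 1.04e-11) and ATF5 from 257 to 8.10 CPM (-5.03, adjusted edgeR p 6.45e-12), with 16.0% and 19.5% of their exon lengths shared with other genes. In NGP the pseudokinase TRIB3 fell from 457 to 13.8 CPM (-5.07, adjusted edgeR p 1.48e-06) and SESN2, a brake on mTORC1, from 148 to 13.1 CPM (-3.52, adjusted edgeR p 1.48e-06). ATF5 fell in NGP as well (-4.13, adjusted edgeR p 9.50e-06). Beside these, the lowest values among the 10 upstream genes were those of PPP1R15B, -0.45 in SK-N-BE2 and -0.38 in NGP, or -0.52 in NGP without DMSO replicate 1.

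**Figure D5:**
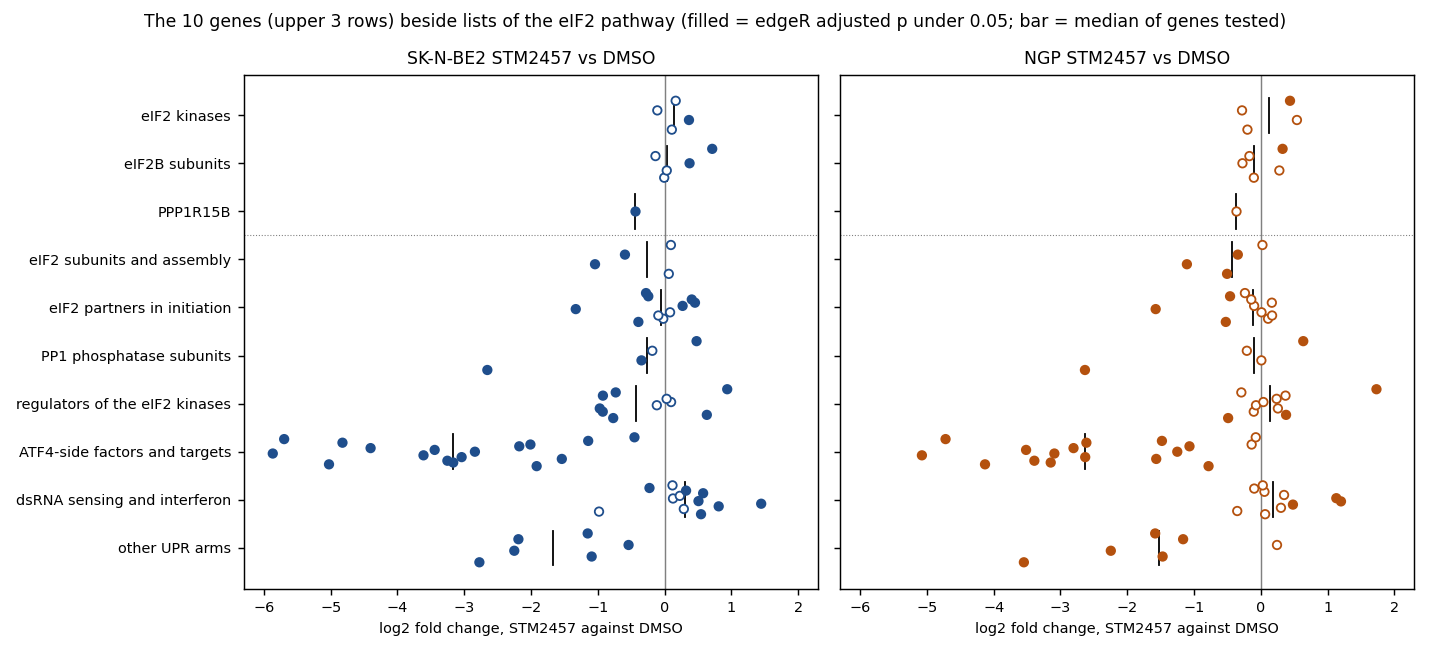
Log2 fold change with STM2457 against DMSO (x axis) of the kinases, eIF2B subunits and PPP1R15B (3 upper rows) and of 7 lists of pathway genes (lower rows) in SK-N-BE2 and NGP, 1 point per gene tested, filled where the adjusted edgeR p is under 0.05, with the median as a bar. The upper rows lie between -0.45 and 0.71 in both panels, while the ATF4 list has medians of -3.17 and -2.63.

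The genes whose level across the 12 libraries, centred on the mean of each line, was most like that of EIF2B5 among 9797 genes were TUBA1A (Pearson r 0.990), EEF1AKNMT (0.988) and CTPS1 (0.986). The libraries fall into treated and control groups, so these values follow the response to treatment and carry no test. TUBA1A, a tubulin with near-identical relatives and therefore uncertain, rose by 1.87 in SK-N-BE2 but 0.87 in NGP. CTPS1, which makes CTP, rose by 0.77 and 0.35 (adjusted edgeR p 1.02e-05 and 0.0169). EEF1AKNMT, which methylates the elongation factor eEF1A, rose by 0.84 and 0.50 (adjusted edgeR p 3.45e-06 and 0.00441).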

How the data were processed

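Polyadenylated RNA of 12 libraries was sequenced, per the labels' protocols, from cDNA made with a SMART kit. The authors deposited raw counts, whole numbers of reads for each gene. These came, per the file headers, from featureCounts 2.0.5 in paired mode over exons of GENCODE 33 protein-coding genes grouped by gene name, with no strand option and without counting pairs as units, so a fragment can add more than 1 read. The submitters' processing notes name GRCh38, FastQC 0.11.5, Trimmomatic 0.36, HISAT2 2.1.0 and Subread 1.5.3, a version that differs from the header. Multi-mapping reads were not requested, which takes reads from genes that have near-identical copies, and genes with over 10% of their exon length shared with another gene in GENCODE 44 are called uncertain.

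Samples were grouped by line, treatment and replicate in their titles. Each line was fitted on its 6 libraries with edgeR 4.0.16 (R 4.3.3), and the difference between lines and the DMSO comparison on all 12, with filterByExpr (minimum count 10), TMM, the quasi-likelihood test, Benjamini-Hochberg adjustment over all genes and a threshold of 0.05. Intervals are 95% t intervals from the log2 fold change and its SE, which was derived from the F statistic. CPM use TMM factors of all 12 libraries, so their ratios can differ slightly from the fits. TPM used the deposited exon lengths. Without spike-ins all changes are relative. The fits were tested on simulated counts.

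The alternatives were DESeq2 1.42.0, no filter on low counts, a filter at a mean of 1 CPM, upper-quartile factors, DESeq2 size factors in edgeR, robust dispersion, counts halved, a replicate block, a joint fit of 12 libraries and leaving out each library. The members and lists were chosen with earlier results of these data known. All 10 members, METTL3 and PPP1R15A were named always. From each list up to 3 called genes per line with the largest change and 1 CPM or more in the group with the higher mean were named, with all genes of the eIF2 and PP1 lists. For members called alike in both lines, the 3 genes most correlated were named. Results of 2 genes that qualified are left out here. ATF4 was named outside that rule, after its values were seen, and the interferon element was added to the motif search later. Depth was 47242379 to 58159937 reads per library, and 3 replicates per group limit the precision.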

Additional observations from a re-analysis of the deposited data

Results flagged for a closer look

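These results differed between the lines when the difference in response (SK-N-BE2 minus NGP, log2 scale) was tested in the edgeR fit of 12 libraries. Line, dose and sequencing run cannot be told apart in any of them. Among the kinases and eIF2B, EIF2B3 differed by 0.66 (adjusted edgeR p 0.00405), EIF2B5 by 0.40 (adjusted edgeR p 0.0208) and EIF2AK1 by 0.32 (adjusted edgeR p 0.0244).

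Among the neighbouring genes the difference was 0.58 for EIF2S1 (adjusted edgeR p 0.00128) and 0.56 for BZW2 (adjusted edgeR p 0.00303), which gave positive values in SK-N-BE2 and negative ones in NGP. It was -1.21 for HSPA5 (adjusted edgeR p 3.01e-05), which gave values of opposite sign in the lines, and -0.81 for IMPACT (adjusted edgeR p 0.00213). HSP90AA1 rose less in SK-N-BE2 (-0.78, adjusted edgeR p 0.000612), as did METTL3 (-0.39, adjusted edgeR p 0.0279), and STAT2 differed by -1.06 (adjusted edgeR p 0.000382). CHAC1 fell further in SK-N-BE2 (-2.76, adjusted edgeR p 2.19e-07), as did DNAJB9 (-1.01, adjusted edgeR p 5.57e-05) and ATF5 (-0.88, adjusted edgeR p 0.0168). TRIB3 (1.48, adjusted edgeR p 0.000124) and ERN1 (0.79, adjusted edgeR p 0.0219) fell further in NGP.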

How the results depend on the processing

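No value of the 10 genes that passed in either fit changed direction under any alternative run. In SK-N-BE2, 4 genes passed in all 6 fits that left out a library (6497 to 7849 genes over all), and EIF2AK2 was lost in the joint fit (adjusted edgeR p 0.0609). In NGP, leaving out a library gave 0 to 7 of the 10 genes (3816 to 7897 over all), and the joint fit gave 5. For the difference between lines leaving out a library gave 1 to 4 (3701 to 6274 over all), and upper-quartile factors and the replicate block each gave 1, EIF2B3. For the lines under DMSO it gave 2 to 4 (9941 to 11072 over all). Calls lost when a library was left out come with fewer samples, and other causes were not tested.

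Same-numbered DMSO and STM2457 libraries did not deviate together (r from -0.07 to 0.09), and differently numbered ones gave -0.15 to 0.12. With 3 libraries per group these values cannot tell whether the numbers pair them, and the labels do not say. With the number as a replicate block the counts of the 10 genes were 4 in SK-N-BE2, 2 in NGP, 1 for the difference and 4 under DMSO. In that fit the NGP calls were EIF2AK2 (adjusted edgeR p 0.0274) and EIF2AK4 (0.0289), while EIF2B5 was lost (0.0656), as were the differences of EIF2AK1 (0.0668) and EIF2B5 (0.0532). Over all genes the block gave 7522, 5026, 4025 and 10233 calls. Of 160 TPM values under an alternative, 40 moved by 1 SD or more. Depth limits none of the 10 genes, but among the other named genes it limits OAS3, OAS1, IRF9 and NUPR1 in NGP.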
